A study of Homo sapiens with 9 samples.

Results

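Expression of 10 stromal matrix genes was followed in ES-2 cells after depletion of IGF2BP1 or SRF. They were FAP, SERPINF1, DCN, LUM, BGN, FBN1, POSTN, SPARC, THBS1 and THBS2, that is 10 of the 58174 genes in the deposited tables. FAP and SERPINF1 were chosen by their measured values, because each moved in opposite directions in the 2 knockdowns. Their levels are therefore given as a description, without a test. The other 8 members were named as stromal matrix genes for comparison with them.

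ES-2 cells, a line grown from a human ovarian carcinoma, served as the model. They were transfected with a control siRNA (siC), an siRNA pool directed at the mRNA-binding protein IGF2BP1 (siIGF2BP1) or a pool directed at the transcription factor SRF (siSRF), and total RNA was sequenced after 72 h, with 3 libraries per group. With 1 pool per gene, loss of the target and any effect that the pool has elsewhere cannot be told apart. The labels do not say whether the libraries came from separate cultures, so p-values measure the spread between these libraries, which may be technical. Gene-assigned reads ranged from 6421764 to 9416175 per library (median 7377934). Values are FPKM, read fragments scaled by gene length and library size. Comparing the levels of different genes thus depends on the gene lengths deposited, such as 7003 bases for FAP and 3069 for SERPINF1.

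The stromal matrix is the network of proteins that fibroblasts and related cells lay down around themselves. Fibrillar collagens carry the load, small leucine-rich proteoglycans such as decorin (DCN), lumican (LUM) and biglycan (BGN) bind them, and fibrillin (FBN1) builds microfibrils. Matricellular proteins, including SPARC, periostin (POSTN) and the thrombospondins (THBS1, THBS2), bind matrix and receptors and tune how cells respond to the matrix. FAP is a membrane-bound serine protease known as a marker of activated fibroblasts in carcinomas, and SERPINF1 encodes PEDF, a secreted serpin known for restraining the growth of blood vessels.

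The targeted mRNAs checked the labels. IGF2BP1 was at 12.8 FPKM ± 0.689 (SD, n = 3) in siC, 4.11 FPKM ± 0.0846 (SD, n = 3) in siIGF2BP1 and 14.2 FPKM ± 0.455 (SD, n = 3) in siSRF. SRF was at 14.5 FPKM ± 1.28 (SD, n = 3) in siC, 6.01 FPKM ± 0.714 (SD, n = 3) in siIGF2BP1 and 1.47 FPKM ± 0.145 (SD, n = 3) in siSRF. SRF mRNA was thus lower in both knockdowns, by 1.26 on the log2 scale in siIGF2BP1 (limma adjusted p = 0.00111) and by 3.22 in siSRF (limma adjusted p = 6.07e-05). The call of SRF in siIGF2BP1 was lost without siC replicate 2, siIGF2BP1 replicate 1 or siIGF2BP1 replicate 2, with limma adjusted p between 0.00823 and 0.0129 over the 6 fits with a library left out.

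The members fell into a measured and an unmeasured part. Of the 10 members, 6 passed the filter on low values: FAP, SERPINF1, BGN, FBN1, SPARC and THBS1 had a mean of at least 0.1 FPKM in each of the 3 comparisons. LUM and POSTN had 0 reads in all 9 libraries. A level of 3 reads, the limit that a count of 0 allows, correspond to between 0.109 and 0.151 FPKM for LUM and between 0.0602 and 0.0832 FPKM for POSTN, depending on the library. DCN had 1 read in siIGF2BP1 replicate 2 and 0 in the other libraries. THBS2 had 9 reads in all, found in 4 libraries with at most 4 in 1 library. A change of these 4 genes was not detectable at this depth, and no fold is given. The limits cover counting error only.

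FAP (ENSG00000078098) maps to chr2:162170684-162245151 on the minus strand (GENCODE annotation on GRCh38). The FAP level was 1.69, 1.43 and 1.58 FPKM in siC, 3.99, 4.85 and 4.25 FPKM in siIGF2BP1, and 0.420, 0.329 and 0.407 FPKM in siSRF. Every siIGF2BP1 library lay above and every siSRF library below every siC library. The mean in siIGF2BP1 was 2.79 times that in siC, and the mean in siC was 4.06 times that in siSRF. These levels rest on between 68 and 80 reads per library in siC, 214 to 252 in siIGF2BP1 and 21 in each siSRF library.

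SERPINF1 (ENSG00000132386) maps to chr17:1762029-1777565 on the plus strand. Its level was 1.23, 1.10 and 1.22 FPKM in siC, 3.70, 4.56 and 4.001 FPKM in siIGF2BP1, and 0.365, 0.322 and 0.309 FPKM in siSRF. The groups again did not overlap, with siIGF2BP1 highest and siSRF lowest. The mean in siIGF2BP1 was 3.45 times that in siC, and the mean in siC was 3.57 times that in siSRF. Between 7 and 9 reads per siSRF library stand behind the lowest values. On the scale of log2(FPKM + 0.1), which understates the change of low genes, FAP differed from siC by 1.42 (SE 0.13) in siIGF2BP1 and -1.78 (SE 0.21) in siSRF, and SERPINF1 by 1.70 (SE 0.13) and -1.57 (SE 0.23). FAP and SERPINF1 thus moved the same way as each other in each knockdown, and the direction was opposite between the knockdowns.

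**Figure D1:**
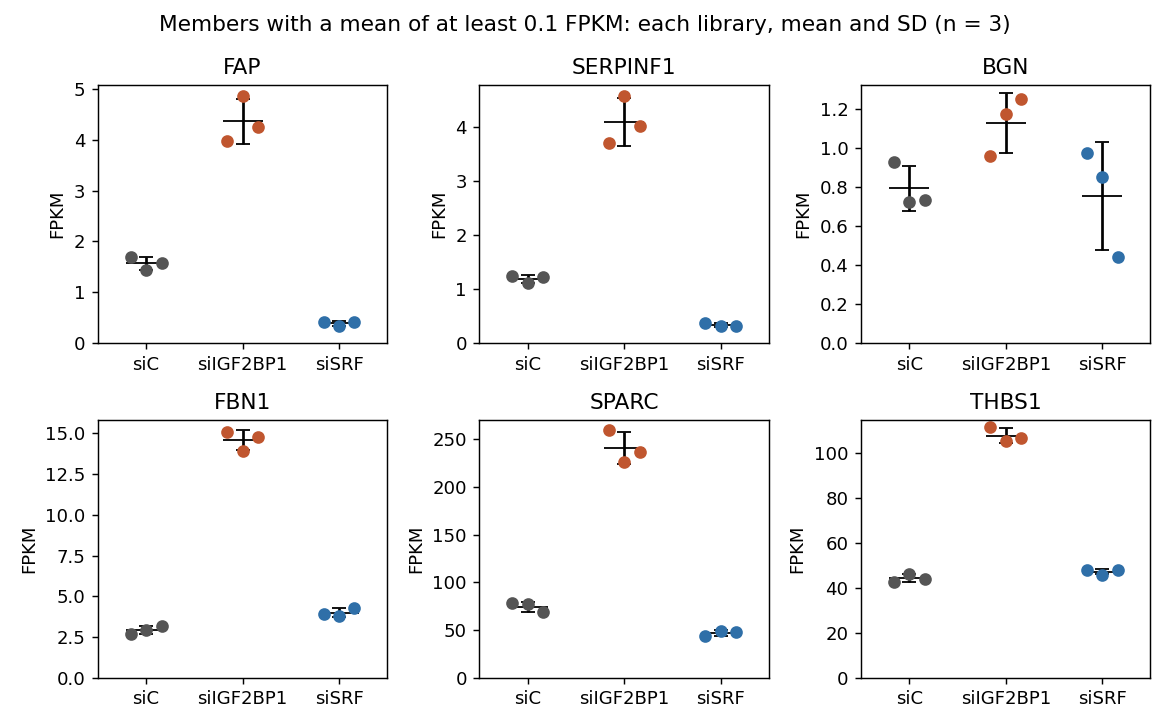
FPKM (vertical axes, each from 0) of the 6 members with a mean of at least 0.1 FPKM, in siC, siIGF2BP1 and siSRF. Points are libraries, and horizontal lines and bars are the mean and SD of 3 libraries. FAP, SERPINF1 and SPARC are highest in siIGF2BP1 and lowest in siSRF, FBN1 and THBS1 are highest in siIGF2BP1 with siSRF near siC, and the BGN groups lie close together.

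SPARC, a secreted glycoprotein that binds collagen, was the member that shared this order. The gene (ENSG00000113140) maps to chr5:151661096-151686975 on the minus strand. Its level was 77.9, 77.2 and 68.5 FPKM in siC, 259.7, 226.4 and 236.7 FPKM in siIGF2BP1, and 43.7, 49.3 and 47.4 FPKM in siSRF. No library of a group overlapped another group. SPARC rose in siIGF2BP1 to 3.23 times its siC mean (log2 fold change 1.69, SE 0.07, limma adjusted p = 1.54e-04). It fell in siSRF to 62.8% of its siC mean (log2 fold change -0.67, SE 0.07, limma adjusted p = 0.00157). The fall in siSRF lost its call in 5 of the 6 fits with a library left out, kept it without siC replicate 3 (limma adjusted p = 0.00484), and had a limma adjusted p of at most 0.0144 in all 6.

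FBN1, the main structural protein of microfibrils, rose most among the tested members in siIGF2BP1. The gene (ENSG00000166147) maps to chr15:48408313-48645721 on the minus strand. Its level was 2.71, 2.92 and 3.177 FPKM in siC, 15.1, 13.9 and 14.8 FPKM in siIGF2BP1, and 3.91, 3.77 and 4.30 FPKM in siSRF. The siIGF2BP1 mean was 4.98 times the siC mean (log2 fold change 2.28, SE 0.08, limma adjusted p = 1.01e-04). In siSRF all libraries lay above those of siC, by 0.43 on the log2 scale (SE 0.10, 95% confidence interval 0.18 to 0.69), without passing the threshold (limma adjusted p = 0.0292). The call depended on the fit here: FBN1 passed with limma-voom on the recovered reads (adjusted p = 1.45e-04) and with all 9 libraries in one fit (limma adjusted p = 0.0053), over a range of 1.45e-04 to 0.0600 among the alternatives that keep all libraries.

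THBS1, which binds matrix proteins, integrins and CD47, maps to chr15:39581079-39599466 on the plus strand (ENSG00000137801). Its level was 42.6, 46.2 and 43.98 FPKM in siC, 111.5, 105.4 and 106.7 FPKM in siIGF2BP1, and 47.9, 46.0 and 47.9 FPKM in siSRF. THBS1 rose in siIGF2BP1 to 2.44 times the siC mean (log2 fold change 1.28, SE 0.05, limma adjusted p = 1.01e-04). The siSRF and siC libraries overlapped (log2 fold change 0.10, SE 0.04, 95% confidence interval -0.01 to 0.20, limma adjusted p = 0.193).

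BGN passed the threshold in none of the 3 comparisons and had the fewest reads of the members tested, between 8 and 26 per library. The gene (ENSG00000182492) maps to chrX:153494980-153509546 on the plus strand. Its level was 0.926, 0.720 and 0.733 FPKM in siC, 0.957, 1.17 and 1.25 FPKM in siIGF2BP1, and 0.971, 0.850 and 0.442 FPKM in siSRF. All siIGF2BP1 libraries lay above those of siC, while the siSRF libraries spread from above the siC range to below it. The log2 fold change was 0.46 in siIGF2BP1 (95% confidence interval -0.07 to 0.99, limma adjusted p = 0.225) and -0.11 in siSRF (-0.90 to 0.67, limma adjusted p = 0.850). The sign in siSRF rested on siSRF replicate 3: without it the value was 0.18. It was 0.09 with trends along GC content and gene length taken out, an alternative chosen after the data were seen.

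Of the 4 tested members besides FAP and SERPINF1, 3 were called higher in siIGF2BP1 than in siC at an adjusted p of at most 0.01 and 0 lower, where 3.55% of the 22292 genes tested were called higher and 3.57% lower. In siSRF against siC, 0 of the 4 were called higher and 1, SPARC, lower, where 6.85% of 21857 genes were called higher and 5.34% lower. With 4 members tested, no share is read from these counts. Both comparisons share the siC libraries.

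The direct comparison of the knockdowns, which holds no siC library, tested the difference between them. FBN1 was higher in siIGF2BP1 than in siSRF (log2 fold change 1.85, SE 0.07, limma adjusted p = 2.35e-05), as were SPARC (2.36, SE 0.07, limma adjusted p = 1.25e-05) and THBS1 (1.19, SE 0.04, limma adjusted p = 1.4e-05). The BGN libraries overlapped (0.57, 95% confidence interval -0.19 to 1.34, limma adjusted p = 0.224). Thus 3 of 4 were called higher and 0 lower, where 8.82% of 22311 genes were called higher and 11.2% lower. FAP and SERPINF1, given without a test, had means in siIGF2BP1 of 11.3 and 12.3 times those in siSRF.

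**Figure D2:**
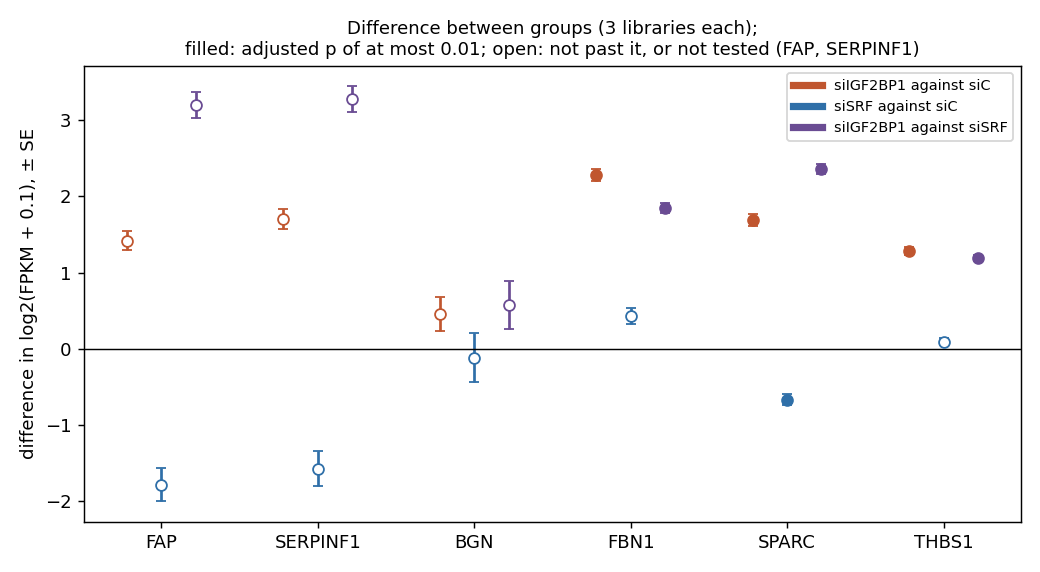
Differences between groups on the scale of log2(FPKM + 0.1) with their SE, for 6 members and 3 comparisons of 3 libraries against 3. Filled points passed an adjusted p of at most 0.01, open points did not or, for FAP and SERPINF1, were not tested. The siIGF2BP1 points against siC lie above 0 for all 6 genes, and in siSRF FAP, SERPINF1 and SPARC lie below 0 by 1.78, 1.57 and 0.67.

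The order of the members by level, which depends on the gene lengths used for scaling, changed between groups. In siC it ran from SPARC (74.5 FPKM ± 5.27, SD, n = 3) and THBS1 (44.3 ± 1.84) through FBN1 (2.94 ± 0.235), FAP (1.57 ± 0.130) and SERPINF1 (1.18 ± 0.0711) to BGN (0.793 ± 0.116), with no overlap between neighbours. In siIGF2BP1 FAP (4.36 ± 0.446) and SERPINF1 (4.08 ± 0.436) overlapped. In siSRF THBS1 (47.3 ± 1.136) and SPARC (46.8 ± 2.84) overlapped, as did FAP (0.385 ± 0.0493) and SERPINF1 (0.332 ± 0.0294), and BGN (0.754 ± 0.277) lay above both.

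In position the members share little: they lie on 8 chromosomes, with DCN and LUM close together on chromosome 12 and FBN1 and THBS1 far apart on chromosome 15. Other genes overlap several of them. On the opposite strand, HAUS7 overlaps BGN and reached at most 0.446 FPKM, CLMAT3 overlaps SPARC (at most 0.188 FPKM), FSIP1 and THBS1-AS1 overlap THBS1 (at most 1.04 and 0.560 FPKM), and THBS2-AS1 overlaps THBS2 and reached at most 1.29 FPKM, where THBS2 itself had 9 reads in all. On the same strand, the lncRNA THBS1-IT1 overlaps THBS1 and reached at most 4.27 FPKM, and a lncRNA that overlaps FBN1 reached at most 0.586 FPKM. The strand setting of the counting is not given in the sources used here, so reads from a gene and its antisense partner cannot be told apart. The lncRNA that overlaps FAP was listed at 0 in all libraries.

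The neighbours of FAP and SERPINF1 were read for comparison, 3 protein-coding genes on either side. DPP4, which encodes a close relative of FAP and lies 96.3 kb away, was at 0 in all libraries, as was GCG. IFIH1, 21.9 kb away and coding for a sensor of viral RNA, was at 1.26, 1.86 and 0.801 FPKM on average in siC, siIGF2BP1 and siSRF, and was called between the knockdowns (log2 fold change 1.12, limma adjusted p = 0.00289) but not against siC. The call was kept in 1 of 6 fits with a library left out. GCA, the next gene, was at 3.79, 5.07 and 2.15 FPKM and was likewise called between the knockdowns (1.19, limma adjusted p = 2.77e-04). SMYD4, 1.92 kb from SERPINF1, was at 4.71, 4.66 and 5.26 FPKM and was called in none of the 3 comparisons, and SERPINF2, 6.76 kb away on the other side, was at or near 0. Of the other neighbours, RPA1 was called between the knockdowns (0.32, limma adjusted p = 0.00332, kept in 1 of 6 such fits), and SLC4A10, KCNH7 and RTN4RL1 were near 0. TLCD2, at 0.203, 0.805 and 0.199 FPKM in siC, siIGF2BP1 and siSRF, was not called (siIGF2BP1 against siC 1.56, limma adjusted p = 0.0221). WDR81, at 3.16, 2.66 and 2.01 FPKM, was not called either (siSRF against siC -0.63, limma adjusted p = 0.0108). Among the alternatives that keep all libraries, these limma adjusted p-values went down to 6.3e-05 and 4.96e-05.

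The 5 protein-coding genes most like FAP over the 9 libraries, by Pearson correlation of log2(FPKM + 0.1) among 10379 genes, included SPTLC3 (r = 0.995), LRRC17 (0.995), SERPINF1 (0.995) and IDI1 (0.995). The 5 most like SERPINF1 included SQLE (0.997), APOL6 (0.996), TANC1 (0.996) and ZNF608 (0.996). The 9 libraries fall into 3 groups, so these values mostly describe the group means and not 9 independent points. FAP and SERPINF1 were each chosen for opposite movement in the knockdowns. Their likeness to each other was thus partly fixed by that choice and is not read as a result. SQLE and IDI1 encode enzymes of sterol synthesis. Among the members, SPARC ranked 419th for FAP (r = 0.942) and 227th for SERPINF1 (0.966), while FBN1 ranked 2068th (0.714) and 1692nd (0.771).

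The promoters of THBS1 and FBN1, 2 members that rose together in siIGF2BP1, show the sequence before their RefSeq starts. RefSeq sequences (GRCh38.p14) were matched for 6 of the 10 members, BGN, FBN1, POSTN, SPARC, THBS1 and THBS2, and were not matched for FAP, SERPINF1, DCN and LUM. The RefSeq start of FBN1 differs from the GENCODE start given above, and its window lies inside the gene as GENCODE draws it, between annotated exons. The 250 bases before the RefSeq start of THBS1 (chr15:39580829-39581078, plus strand) and FBN1 (chr15:48644971-48645220, minus strand) hold no annotated exon and read, 5′ to 3′:
THBS1: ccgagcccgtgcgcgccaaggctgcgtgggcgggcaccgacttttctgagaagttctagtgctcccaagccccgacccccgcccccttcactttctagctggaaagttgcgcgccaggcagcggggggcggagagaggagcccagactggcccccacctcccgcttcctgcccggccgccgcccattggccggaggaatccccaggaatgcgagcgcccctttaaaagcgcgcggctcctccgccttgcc
FBN1: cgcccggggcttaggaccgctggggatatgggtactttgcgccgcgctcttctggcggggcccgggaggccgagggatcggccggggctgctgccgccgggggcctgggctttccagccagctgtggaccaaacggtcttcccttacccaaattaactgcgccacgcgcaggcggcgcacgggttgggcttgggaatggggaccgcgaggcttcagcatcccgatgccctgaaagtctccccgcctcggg
Matches would stand in capitals. The CArG box, the motif that SRF binds, and TATAAA were searched on both strands, and neither was found in these 2. In all 6 promoters the CArG box was found in 0, where 1.16% of 35116 promoters of the same length held it. TATAAA was found in 2, those of POSTN and THBS2, where 10.7% of all promoters held it. The absence of a match says only that these letters are not in the window, and for FBN1 the sequence before the GENCODE start was not searched. The windows of SPARC, POSTN and THBS2 also reach into their genes as GENCODE draws them. Their longest stretches without an annotated exon were 0 bases for SPARC, 174 for POSTN and 93 for THBS2. FBN1 had 25 CG dinucleotides, THBS1 24, BGN 16, THBS2 12, SPARC 7 and POSTN 1, beside a median of 11 over all promoters.

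The genes around the members were described by 8 lists holding 135 genes without FAP and SERPINF1. These lists include the other 8 members. FBN1, SPARC and THBS1 are therefore counted again among the genes called higher in siIGF2BP1 against siC and between the knockdowns. SPARC is likewise counted again among those lower in siSRF. In siIGF2BP1 against siC, 24 of the 80 tested were called higher and 5 lower, where 3.55% and 3.57% of all genes tested were, and the median log2 fold change of those tested was 0.31, beside 0.02 over all genes tested. In siSRF against siC, 8 of 75 were called higher and 20 lower (all genes: 6.85% and 5.34%), with a median of -0.17 beside 0.01. Between the knockdowns 32 of 78 were called higher in siIGF2BP1 and 6 lower (all genes: 8.82% and 11.2%), with a median of 0.57 beside 0.02. Genes under 0.1 FPKM were not tested, and a gene could pass that filter through the group where it is high. The counts were smaller with a library left out, 12 to 17 of the list genes in siIGF2BP1 and 9 to 16 in siSRF.

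The small leucine-rich proteoglycans were nearly unmeasured, with 15 of 17 under 0.1 FPKM and 11 at 0 in all 9 libraries. TSKU, which encodes Tsukushi, was the called one. It fell in siSRF (log2 fold change -0.77, SE 0.11, limma adjusted p = 0.00426), and this call was lost in each fit with a library left out (limma adjusted p up to 0.0256).

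Of the thrombospondins and their receptors, 5 of 15 tested rose and 2 fell in siIGF2BP1 (all genes: 3.55% and 3.57%), with a median log2 fold change of 0.31 beside 0.02 over all genes tested. The integrin subunits ITGB3 (1.77, SE 0.18), ITGB1 (1.53, SE 0.08) and ITGAV (1.46, SE 0.06) rose on the log2 scale, as did the scavenger receptor LRP1 (1.34, SE 0.11). THBS1, a member described above, is counted with them. ITGB1 went from 82.8 FPKM ± 8.51 to 238.6 FPKM ± 8.88 (SD, n = 3). ITGB3, at 0.518 FPKM in siC, lost its call in each fit with a library left out (limma adjusted p up to 0.0209), and LRP1 lost it in 1 of 6. In siSRF 2 of 15 rose and 4 fell (all genes: 6.85% and 5.34%; median -0.08 beside 0.01), among them the syndecans SDC4 (-1.01, SE 0.08) and SDC1 (-0.93, SE 0.06). The calcium channel subunit CACNA2D1 rose (0.86, SE 0.13), a call kept in 1 of the 6 such fits.

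In the SPARC family and the other matricellular genes, 4 of 12 tested rose and 0 fell in siIGF2BP1 (all genes: 3.55% and 3.57%), with a median of 0.45 beside 0.02 over all genes tested. Besides SPARC they were FSTL1 (1.13, SE 0.06), TGFBI (1.08, SE 0.08) and NOV (0.62, SE 0.09), the last lost in each fit with a library left out (limma adjusted p up to 0.0386). In siSRF 1 of 10 rose and 3 fell (all genes: 6.85% and 5.34%; median -0.23 beside 0.01). Those that fell were SPARC, TGFBI (-1.32, SE 0.11) and NOV (-1.06, SE 0.11, kept in 3 of 6 such fits). TGFBI, an integrin-binding matrix protein, was thus at 9.23, 19.7 and 3.63 FPKM in siC, siIGF2BP1 and siSRF, the order seen for FAP, SERPINF1 and SPARC. CTGF, a secreted matricellular protein, rose in siSRF (1.13, SE 0.16), a call kept in 1 of 6 such fits.

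Elastic fibre and microfibril genes rose in siIGF2BP1 for 9 of the 20 tested, and 0 fell (all genes: 3.55% and 3.57%), with a median of 0.60 beside 0.02 over all genes tested. Of these 9 calls, those of FBN1, EFEMP1, LOXL1 and LOXL2 were kept in all 6 fits with a library left out, and the other 5 in at most 1. EFEMP1, a fibulin, went from 1.66 FPKM ± 0.307 to 16.4 FPKM ± 0.494 (SD, n = 3), a log2 fold change of 3.24 (SE 0.13, limma adjusted p = 1.41e-04). Its level in siSRF, 1.78 FPKM ± 0.238, overlapped that in siC. LOXL1 and LOXL2, which cross-link elastin and collagen, rose by 1.43 (SE 0.09) and 1.13 (SE 0.06). In siSRF 1 of 19 rose, the lysyl oxidase LOX (1.24, SE 0.04), and 4 fell (all genes: 6.85% and 5.34%; median -0.17 beside 0.01), with LOXL1 at -1.34 (SE 0.11), LTBP3 at -0.95 (SE 0.09) and LTBP4 at -0.68 (SE 0.12). The LTBP4 call was lost in each fit with a library left out (limma adjusted p up to 0.0443), and the LTBP3 call was kept in 3 of 6. LOXL1 was at 11.4, 30.9 and 4.46 FPKM in siC, siIGF2BP1 and siSRF.

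Relatives of FAP and partners of SERPINF1 gave small lists, from which no share is read. Of 7 prolyl peptidases tested, 0 rose and 1 fell in siIGF2BP1 (all genes: 3.55% and 3.57%), and 1 rose and 1 fell in siSRF (all genes: 6.85% and 5.34%). DPP7 fell in siIGF2BP1 (-1.143, SE 0.07, limma adjusted p = 5e-04) and in siSRF (-0.72, SE 0.10, limma adjusted p = 0.00409, kept in 1 of 6 fits with a library left out), and PREPL rose in siSRF (0.49, SE 0.08), a call lost in each such fit (limma adjusted p up to 0.0301). Of the 4 genes tested among SERPINF2 and the reported receptors of PEDF, 0 rose and 1 fell in siIGF2BP1 and 0 were called in siSRF. ATP5B fell in siIGF2BP1 (-0.32, SE 0.05, limma adjusted p = 0.00934), a call lost in each such fit (limma adjusted p up to 0.0498).

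Among the other secreted or ER serpins, SERPINH1, the collagen chaperone HSP47, was at 36.8, 86.2 and 22.3 FPKM in siC, siIGF2BP1 and siSRF (log2 fold changes against siC 1.22, SE 0.09, and -0.72, SE 0.06). Its rise lost the call in 1 of 6 fits with a library left out (limma adjusted p up to 0.0112). SERPINE2 fell in siSRF (-2.39, SE 0.23), kept in 4 of 6 such fits, and SERPINI1 rose (1.35, SE 0.19), kept in none (limma adjusted p up to 0.0248).

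Of the large proteoglycans, fibronectin and glycoproteins, 4 of 13 tested rose and 1 fell in siIGF2BP1 (all genes: 3.55% and 3.57%), with a median of 0.92 beside 0.02 over all genes tested. MATN2 (2.30, SE 0.22), VCAN (1.30, SE 0.12), IGFBP7 (1.06, SE 0.13) and CTHRC1 (0.92, SE 0.11) rose, with calls kept in 1, 2, 0 and 0 of the 6 fits with a library left out (limma adjusted p up to 0.0185, 0.0154, 0.0316 and 0.0250). In siSRF 1 of 11 rose and 5 fell (all genes: 6.85% and 5.34%; median -0.74 beside 0.01). CTHRC1 (-1.41, SE 0.13), NID1 (-1.49, SE 0.24) and fibronectin FN1 (-1.36, SE 0.08) fell, with FN1 kept in all 6 such fits, CTHRC1 in 5 and NID1 in 0 (limma adjusted p up to 0.0351). MATN2 rose (1.74, SE 0.26) and was kept in none. Other list genes behind these counts, named after their values were seen, were SDC1 (-0.64), ITGA6 (-0.54) and FN1 (-0.80) lower in siIGF2BP1, with calls kept in 1, 0 and 0 of the 6 such fits (limma adjusted p up to 0.0190, 0.0533 and 0.0185). In siSRF ITGAV (0.66) was higher, kept in all 6, and lower were SCARB1 (-0.67, kept in 5), AGRN (-0.85) and LOXL2 (-0.39), each kept in 1, and ITGA3 (-0.29) and IGFBP7 (-0.93), kept in none (limma adjusted p up to 0.0372 and 0.0464).

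**Figure D3:**
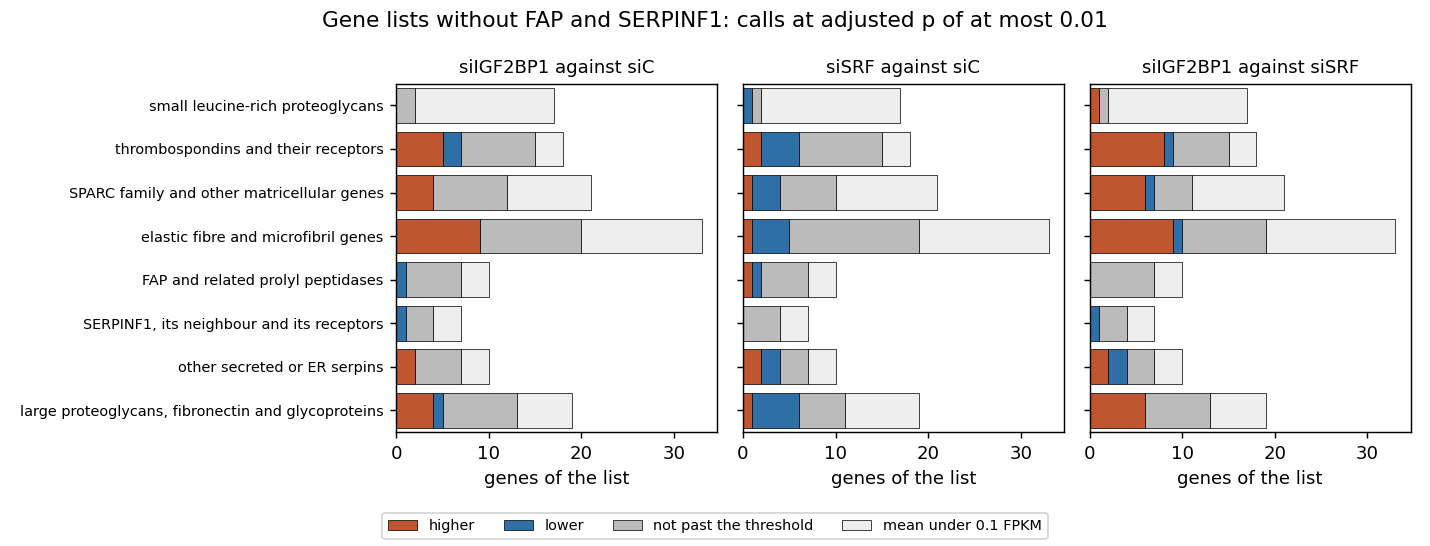
Number of genes (horizontal axis) of each list called higher or lower in the first-named group, tested but not past the threshold, or under 0.1 FPKM, in 3 comparisons. FAP and SERPINF1 are left out, and the other members are counted in their lists. Elastic fibre and microfibril genes have 9 genes higher and 0 lower in siIGF2BP1 against siC, where 3.55% and 3.57% of all genes were called.

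**Figure D4:**
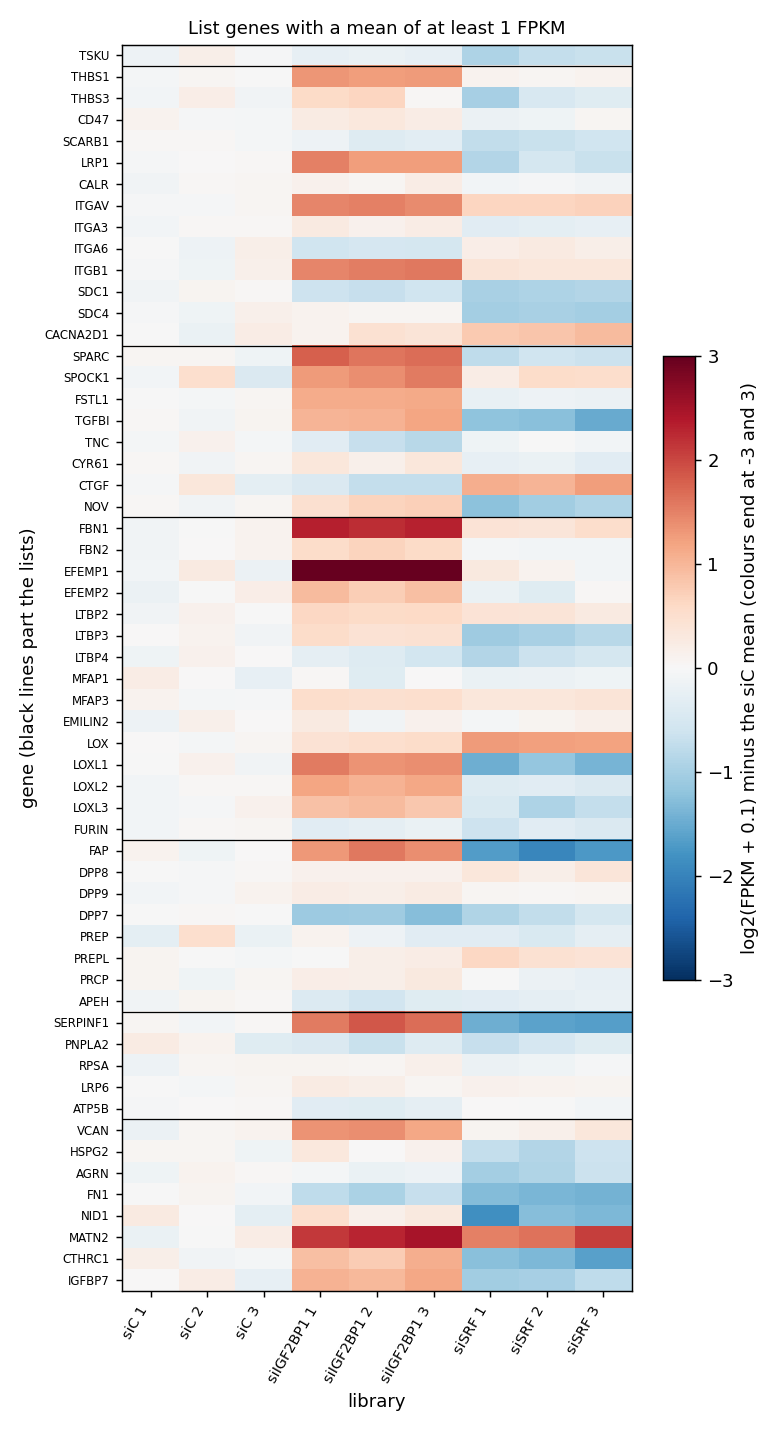
log2(FPKM + 0.1) minus its siC mean (colours end at -3 and 3) for list genes that average 1 FPKM or more, in the 9 libraries. Rows are genes in the order of the lists and columns are libraries. The list of other secreted or ER serpins is not drawn. EFEMP1 is high in the siIGF2BP1 libraries alone.

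Markers of cell types were checked in the same libraries. Of 15 markers of fibroblasts and cancer-associated fibroblasts, PDPN, LUM and POSTN were at 0 in all 9 libraries, COL1A2 and COL3A1 were near 0, and VIM was the most abundant (930.5 FPKM on average). Their summed level was between 1066.9 and 1086.6 FPKM in siC, 909.7 and 1000.7 in siIGF2BP1 and 858.6 and 907.2 in siSRF. Without VIM the sum was 19.1 to 21.8 FPKM in siC, 70.4 to 81.9 in siIGF2BP1 and 21.6 to 22.7 in siSRF. In siIGF2BP1 4 of 8 tested markers were called higher (all genes: 3.55%), among them THY1 (11.4 to 41.3 FPKM), COL1A1 (3.50 to 20.9 FPKM) and PDGFRB (0.143 to 0.925 FPKM). THY1 kept its call in all 6 fits with a library left out, COL1A1 in 4 and PDGFRB in 0 (limma adjusted p up to 0.0246). FAP, DCN, LUM and POSTN belong to this marker list themselves. FAP, chosen by its values, was not among the 8 tested. In the sum FAP stood for 1.57 FPKM on average in siC, 4.36 in siIGF2BP1 and 0.385 in siSRF. LUM and POSTN added 0, and DCN was near 0. In siSRF 0 of the 8 were called higher and 1, VIM, lower (all genes: 6.85% and 5.34%). The VIM call was kept in 0 of 6 fits with a library left out (limma adjusted p up to 0.0654). Of 13 markers of ovarian carcinoma epithelium, those at 0 included MUC16, WFDC2, MSLN and CLDN3, and KRT7 was the most abundant (126.6 FPKM). Their sum was 148.9 to 161.1 FPKM in siC, 192.2 to 219.9 in siIGF2BP1 and 216.8 to 222.2 in siSRF. Of 5 tested, 2 were called higher and 0 lower in siIGF2BP1 (all genes: 3.55% and 3.57%), and likewise 2 and 0 in siSRF (all genes: 6.85% and 5.34%). The calls in siIGF2BP1 were those of KRT7 and KRT8, kept in 2 and 0 of 6 fits with a library left out (limma adjusted p up to 0.0174 and 0.0273). Those in siSRF were of KRT7 and KRT18, kept in 1 and 6 of 6 such fits (limma adjusted p up to 0.0267 and 0.00684). Endothelial markers summed to at most 16.5 FPKM, nearly all of it CDH5, with VWF near 0. Of 3 tested, 1, CDH5, was called higher in siIGF2BP1 (all genes: 3.55%) and 0 in siSRF (all genes: 6.85%). The CDH5 call was kept in 0 of 6 such fits (limma adjusted p up to 0.0533). Blood and immune markers summed to at most 0.945 FPKM, with PTPRC and CD3E among those at 0 and 0 called against siC. From such small lists no share is read. All 9 libraries are labelled as the ES-2 line, so the markers describe RNA of a cultured line and do not count stromal cells. In bulk libraries a change in every cell and a change in the share of cells that express a gene cannot be told apart.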

How the data were processed

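Total RNA of ES-2 cells was depleted of ribosomal RNA and sequenced from directional libraries. The authors clipped reads with Cutadapt 1.14, aligned them with HISAT2 2.1.0 to GRCh38, handled alignments with SAMtools 1.5, counted them on Ensembl 89 genes with featureCounts 1.5.3 and scaled them with edgeR 3.18.1. They deposited FPKM values per library in 2 tables, with identical siC values in both. The tables also hold the authors' fold changes, p-values and FDRs, which were not used.

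From these FPKM values, whole reads were recovered for 100% of values (tolerance 0.001 read). Groups came from the labels. Genes averaging 0.1 FPKM or more in the 6 libraries were compared on log2(FPKM + 0.1) by limma 3.58.1 (lmFit, eBayes with a trend) in R 4.3.3. P-values were adjusted over all genes kept by Benjamini-Hochberg and called at 0.01. Tested on simulated data, this fit missed many changed genes and gave more false calls than its threshold allows, above all when few genes changed. Those false calls lay in genes averaging under 5 reads per library, and a bound on false calls that the fit had failed was then limited to genes of at least 5 reads. Of the real calls, 56 of 1588 in siIGF2BP1, 74 of 2665 in siSRF and 114 of 4460 between the knockdowns were genes under 5 reads, so the background shares include some calls of that kind. The members tested average more reads.

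The members and lists were chosen with earlier results of these data known. Genes named are the members, the called list genes (at most 4 per list and comparison, by size), the 5 genes most like FAP and SERPINF1, their 3 neighbours on either side (GENCODE 44) and cell type markers. Some genes that this rule names are not reported here. The alternatives were pseudocounts of 1 and 0.01, no filter, a mean of at least 1 FPKM, rescaling by median ratios, limma-voom on recovered reads, the replicate number as a block, a single fit of all 9 libraries, a threshold of 0.05 and leaving out each library. A correction for GC content and gene length was chosen after seeing the data; 98.8% of the genes tested in siIGF2BP1 had a GC value.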

Additional observations from a re-analysis of the deposited data

How the results depend on the processing

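The 3 calls of members in siIGF2BP1 against siC and the 3 between the knockdowns held under every alternative run, each fit with a library left out included. In siSRF against siC, the 1 call of a member became 2 with limma-voom, with all 9 libraries in one fit and at a threshold of 0.05, where FBN1 joined SPARC, and 0 with the replicate block, and lay between 0 and 1 with a library left out. The list genes called were 48 with limma-voom and 9 with the replicate block in siIGF2BP1 (29 in the reported fit), 8 with the replicate block in siSRF (28), and 61 with limma-voom between the knockdowns (38). With a library left out they were 12 to 17 in siIGF2BP1, 9 to 16 in siSRF and 26 to 33 between the knockdowns. Over all genes, calls in siIGF2BP1 (1588) became 3805 with limma-voom, 91 with the replicate block, 2481 with all 9 libraries and 3596 at 0.05. Calls in siSRF (2665) became 5123, 501 with the block and 5205 at 0.05, and between the knockdowns (4460) 6912, 2075 and 7132. With a library left out they were 273 to 551, 673 to 1515 and 2638 to 3196, from fits with fewer libraries. The cause of the other shifts was not tested.

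Same-numbered libraries did not deviate together (correlations across genes between -0.0438 and 0.0186), so the replicate numbers do not pair the samples and the block uses up degrees of freedom. Of the list genes named, 11 of 20 calls in siIGF2BP1, 8 of 23 in siSRF and 16 of 22 between the knockdowns held in every fit with a library left out, and all were called by limma-voom. The GC content and gene length correction, chosen after seeing the data, gave 1932, 2561 and 4759 calls. The low read counts of FAP and SERPINF1 in siSRF and of BGN limit their values, and the pseudocount moved the log2 difference in siSRF between -0.888 and -1.999 for FAP and between -0.713 and -1.805 for SERPINF1, and in siIGF2BP1 between 1.062 and 1.471 for FAP and between 1.216 and 1.774 for SERPINF1.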
